A study of Homo sapiens with 12 samples.

Results

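Aminoacyl-tRNA synthetases are the enzymes that load each transfer RNA with its amino acid. Messenger RNA of 39 genes of this family was followed in 2 established human esophageal squamous carcinoma lines, KYSE150 and KYSE410, kept in hypoxia (0.5% oxygen) or in normoxia (21% oxygen). The genes were picked by symbol out of the 34694 gene symbols listed in at least 1 of the deposited tables. They comprise 20 cytosolic enzymes or enzyme subunits, 16 mitochondrial enzymes (the symbols ending in 2, apart from AIMP2) and 3 non-enzymatic scaffold proteins. GARS1 and KARS1, whose genes encode both the cytosolic and the mitochondrial enzyme, were counted as cytosolic. All 39 were listed in both tables.

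The series compared the response of both lines to low oxygen with poly(A)-selected RNA sequencing. The groups were KYSE150 in hypoxia, KYSE150 in normoxia, KYSE410 in hypoxia and KYSE410 in normoxia, with 3 libraries each and no genetic change or drug. The sample labels give 48 h for the hypoxic cultures and a time point of 0 for the normoxic ones, but by the design text both were kept equally long. The labels do not state whether the 3 libraries of a group were grown apart, and the p-values therefore cover library-to-library spread that may be technical alone. Values are FPKM (fragments per kilobase, relative to the fragments of the library), and their depth is unknown. Each FPKM is a share of the library's mRNA, so less of a message per cell cannot be told apart from more of all other messages, nor from fewer cells that express it.

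Some facts of the libraries bear on all results. CA9, ADM, BNIP3 and LDHA, used as a check of the oxygen labels, were higher in hypoxia in both lines, with log2 changes of 1.99 to 4.55. Of 14 squamous and epithelial markers, 13 averaged at least 1 FPKM in KYSE410 but only 5 did in KYSE150. In KYSE150 KRT5, KRT6A, DSG3 and PKP1 were under 0.1 FPKM in both groups. SOX2 was under 0.1 FPKM in both groups of either line. Endothelial markers summed to at most 0.143 FPKM in any library. Normoxia replicate 2 of KYSE150 stood apart from the other normoxic KYSE150 libraries, with an SD of the log2 difference of 0.339 and 0.369, against 0.153 to 0.197 in the other same-group pairs. Its deviation ran against transcript length (Spearman correlation -0.632), while those of normoxia replicates 1 and 3 ran with it (0.518 and 0.574). The cause of this was not tested. In KYSE410 the numbers after the letter S in the library names are 56 to 58 in hypoxia and 38 to 40 in normoxia, and if these numbers mark library sets, which the labels do not say, set and oxygen level cannot be told apart there. The numbers of KYSE150 run from 50 to 55 without a gap.

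As background, a synthetase joins its amino acid to AMP and then passes it to the 3′ end of the matching tRNA. Human cells keep separate enzymes for the cytosolic and the mitochondrial ribosomes, nearly all of them encoded in the nucleus by separate genes. Several cytosolic enzymes sit in a multisynthetase complex held together by AIMP1, AIMP2 and EEF1E1 (also called AIMP3). Mitochondria have no glutaminyl enzyme: EARS2 puts glutamate on the glutamine tRNA and an amidotransferase converts it. Many cytosolic synthetase genes are textbook targets of ATF4, the transcription factor made when the kinases that sense amino acid shortage or stress phosphorylate eIF2.

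In hypoxia most cytosolic synthetase messages fell in both lines, while the mitochondrial ones split between falls, rises and no call. A gene was called when its adjusted p was under 0.05 (limma on log2(FPKM + 1), Benjamini-Hochberg over all genes tested). In KYSE150, 16 of the 20 cytosolic genes fell, 1 rose and 3 were not called. In KYSE410, 16 fell, 3 rose and 1 was not called. For comparison, of all 12692 genes tested in KYSE150, 38.8% fell and 23.5% rose, and of all 12054 tested in KYSE410, 51.9% fell and 31.2% rose. The median log2 change of the cytosolic class was -1.27 in KYSE150 and -0.86 in KYSE410, against -0.13 and -0.21 for all genes tested. Relative to these all-gene medians, the class stood at -1.14 in KYSE150 and -0.65 in KYSE410. In both lines 15 cytosolic genes fell. Without KYSE150 normoxia replicate 2, the count in KYSE150 was 16 lower and 3 higher, with FARSA and KARS1 joining QARS1.

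Of the 16 mitochondrial genes, 6 fell, 3 rose and 7 were not called in KYSE150, while 7 fell, 7 rose and 2 were not called in KYSE410. In KYSE150 that is 37.5% lower and 18.8% higher, near the 38.8% and 23.5% of all genes tested. In KYSE410 it is 43.8% lower and 43.8% higher, against 51.9% and 31.2% of all genes tested. The median log2 change of the mitochondrial class was -0.10 in KYSE150 and 0.14 in KYSE410, that is 0.03 and 0.35 relative to the all-gene medians. The sign of these mitochondrial medians turned with the scaling: it was 0.03 in KYSE150 with median-of-ratios scaling and -0.07 in KYSE410 with all libraries set to a common sum. All 3 scaffold genes fell in KYSE150 and 2 of 3 fell in KYSE410, against 38.8% and 51.9% of all genes tested. All 39 genes passed the filter of a mean of at least 1 FPKM, so none is missing from these counts.

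**Figure D1:**
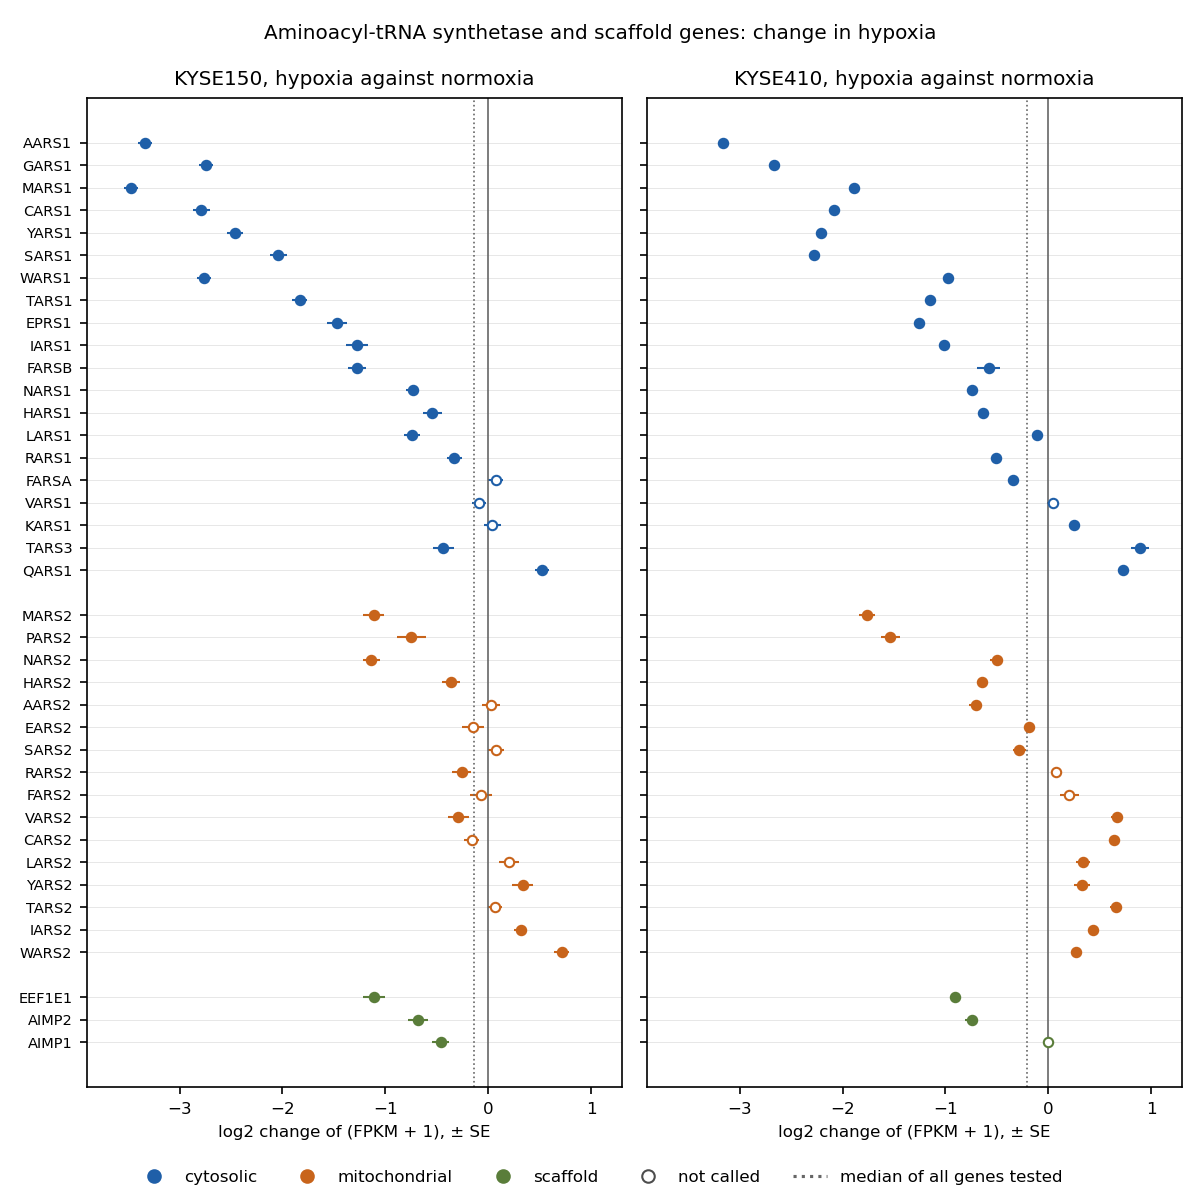
Log2 change of (FPKM + 1), hypoxia against normoxia, for all 39 genes in KYSE150 (left) and KYSE410 (right), with bars for the standard error. Filled points passed an adjusted p of 0.05, and the dotted line is the median of all genes tested (-0.13 and -0.21). Most cytosolic points (blue) lie left of that line in both lines, down to -3.47 for MARS1 in KYSE150, while mitochondrial points (orange) lie on both sides, at positions that shift with the scaling.

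The summed levels of the classes, and their ratio within a library, which does not depend on how whole libraries were scaled, give the same contrast. The 20 cytosolic genes summed to 788, 781 and 798 FPKM in the KYSE150 hypoxia libraries, against 2247, 2321 and 2269 FPKM in normoxia. The 16 mitochondrial genes summed to 199, 201 and 201 FPKM in KYSE150 hypoxia, against 195, 206 and 206 FPKM in normoxia. The groups are far apart for the cytosolic sum and overlap for the mitochondrial sum. Within a library, the cytosolic sum was 3.94 ± 0.052 times the mitochondrial one in KYSE150 hypoxia and 11.3 ± 0.252 times in normoxia (SD, n = 3 each). In KYSE410 the cytosolic sums were 1125, 1137 and 1163 FPKM in hypoxia, against 2410, 2473 and 2455 FPKM in normoxia. The KYSE410 mitochondrial sums were 304, 304 and 311 FPKM in hypoxia, against 265, 263 and 262 FPKM in normoxia. A sum gives most weight to abundant genes, and IARS2 alone averaged 143.4 FPKM in KYSE410 hypoxia and 106.1 FPKM in normoxia. In KYSE150 IARS2 averaged 73.46 FPKM in hypoxia and 58.85 FPKM in normoxia. The mitochondrial sums therefore do not describe the 16 genes evenly. The ratio in KYSE410 was 3.73 ± 0.0231 in hypoxia and 9.29 ± 0.176 in normoxia (SD, n = 3 each). The ratios of the lines lay closer together in hypoxia than in normoxia. No test was run on these sums, because 3 libraries against 3 cannot pass the threshold in an exact permutation test and the members were chosen with results known.

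**Figure D2:**
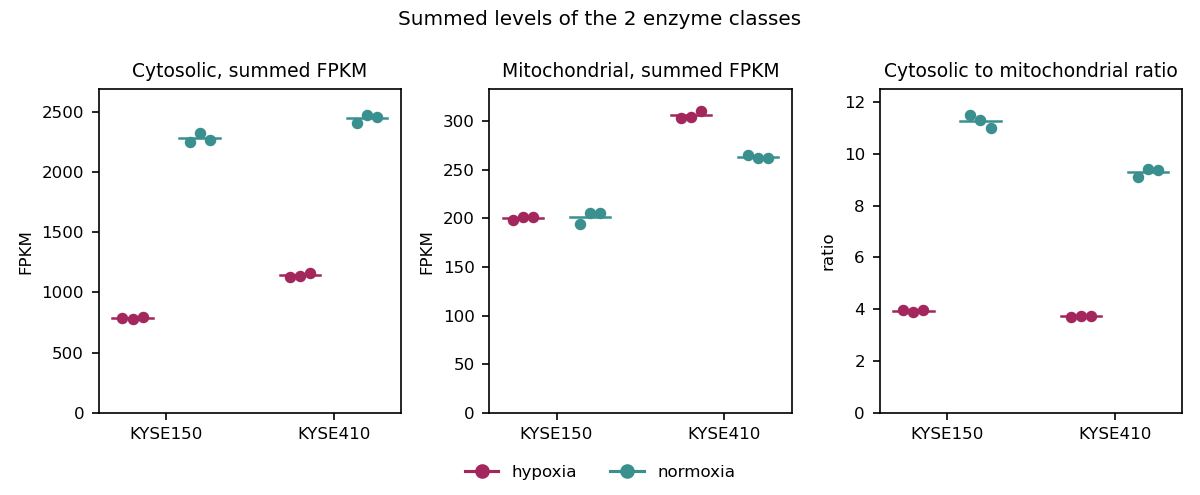
Summed FPKM of the 20 cytosolic genes, of the 16 mitochondrial genes, and the ratio of these sums in each library (points, with the group mean as a bar), hypoxia left of normoxia in each line. The ratio lies between 3.70 and 3.97 in all 6 hypoxia libraries and between 9.09 and 11.5 in all 6 normoxia libraries.

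The alanine and methionine enzymes had the deepest falls of KYSE150. AARS1 (chr16:70252298-70289506, minus strand, RefSeq GRCh38.p14), which charges the alanine tRNA, had 22.9, 21.4 and 23.7 FPKM in the KYSE150 hypoxia libraries, against 233, 239.6 and 241 FPKM in normoxia. Its log2 change was -3.34 ± 0.07 (SE, adjusted p = 1.372e-07), so that hypoxic cells held 9.53% of the normoxic mean. In KYSE410 AARS1 had 19.9, 20.3 and 19.7 FPKM in hypoxia, against 186, 192 and 183 FPKM in normoxia, a log2 change of -3.17 ± 0.03 (SE, adjusted p = 3.996e-10). The groups were far apart in both lines, and the libraries of each group lay close together. Among all genes tested, ordered from the largest fall, AARS1 stood at place 7 in KYSE150 and at place 12 in KYSE410.

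MARS1 (chr12:57488068-57516652, plus strand), the methionine enzyme, which serves both initiation and elongation, had 5.37, 5.62 and 5.87 FPKM in the KYSE150 hypoxia libraries, against 72.0, 72.4 and 72.6 FPKM in normoxia. This was a log2 change of -3.47 ± 0.07 (SE, adjusted p = 1.372e-07) and place 5 among all genes tested. In KYSE410 MARS1 had 26.4, 27.3 and 27.0 FPKM in hypoxia, against 102, 102 and 102 FPKM in normoxia, a log2 change of -1.89 ± 0.03 (SE, adjusted p = 2e-09) and place 246. Hypoxic cells thus kept 7.77% of the normoxic mean in KYSE150 and 26.3% in KYSE410. Exons of MARS1 overlap DDIT3 on the opposite strand for 355 bases (5.05% of the exonic bases of MARS1) and ARHGAP9 for 519 bases (7.38%). Whether the counting used strand is not given in the sources used here, so reads of these overlaps could be shared.

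The promoters of several of these genes carry the composite element to which ATF4 binds together with a C/EBP partner. Its core was searched as TGATGNAA on both strands of RefSeq promoter windows (GRCh38.p14, 250 bases before to 50 after the start), and it is shown for the 4 cytosolic genes with a match and the deepest mean fall. The capitals mark the match, which here reads TTGCATCA because it lies on the strand opposite to the gene, and each stretch runs 5′ to 3′ along the gene.
AARS1, chr16:70289646-70289733, minus strand: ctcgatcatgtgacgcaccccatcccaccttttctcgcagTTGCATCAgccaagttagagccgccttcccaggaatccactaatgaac
MARS1, chr12:57488024-57488097, plus strand: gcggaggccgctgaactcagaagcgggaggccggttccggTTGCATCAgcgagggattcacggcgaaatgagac
CARS1, chr11:3057394-3057465, minus strand: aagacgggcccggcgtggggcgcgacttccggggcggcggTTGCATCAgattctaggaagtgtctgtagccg
TARS1, chr5:33440927-33440994, plus strand: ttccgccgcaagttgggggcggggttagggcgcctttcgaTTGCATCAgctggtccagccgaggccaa

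In all 4 the matched letters were the same, TGATGCAA on the opposite strand. The match began 187 bases before the start in AARS1, 4 before it in MARS1, 2 before it in CARS1 and at base 3 after it in TARS1. IARS1 and NARS1 held the same letters, from 13 bases before and 15 after the start. In all, 6 of the 16 cytosolic genes with a RefSeq window held the core (37.5%), against 1 of 14 mitochondrial genes (7.14%, YARS2, as TGATGGAA) and none of the 3 scaffold genes. Among all 27305 windows 3.67% held it, and 2.53% of the 15843 windows of protein-coding genes. All 6 cytosolic genes with the core fell in both lines, but so did 9 without a match in the window or without a window, GARS1 and SARS1 among them. The window start is the first base of the gene in the RefSeq gene table for 29 of the 33 members with a window. It lies inside the gene for TARS1 (by 269 bases), EARS2 (25), CARS2 (7007) and FARS2 (11073), so these windows belong to an internal start. The windows of LARS1, TARS3, VARS1, YARS1, AARS2 and VARS2 were not used. A match describes letters only, and no binding was measured here.

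The mitochondrial partners of MARS1 and CARS1 are shown beside them with another core in capitals. This is ACGTG, the core of the element bound by the hypoxia-inducible factors, searched on both strands, so that CACGTG holds 2 overlapping matches.
MARS2, chr2:197705318-197705398, plus strand: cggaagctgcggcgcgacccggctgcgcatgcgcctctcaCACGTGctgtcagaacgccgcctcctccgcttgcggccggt
CARS2, chr13:110706486-110706619, minus strand: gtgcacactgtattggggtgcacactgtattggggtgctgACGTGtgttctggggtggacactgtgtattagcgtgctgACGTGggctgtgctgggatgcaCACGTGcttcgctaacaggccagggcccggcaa

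ACGTG was in 5 of 14 mitochondrial windows (35.7%) and 3 of 16 cytosolic ones (18.8%), against 21.6% of all windows and 23.7% of those of protein-coding genes. Genes that held it moved both ways: the cytosolic EPRS1, IARS1 and WARS1 and the mitochondrial MARS2 and NARS2 fell in both lines, CARS2 and TARS2 rose in KYSE410, and EARS2 had the small change given with the mitochondrial enzymes.

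CARS1, GARS1, YARS1, SARS1 and WARS1 were the other enzymes among the 5 deepest cytosolic falls of at least 1 line, WARS1 in KYSE150 alone. CARS1, the cysteine enzyme, had 9.03, 9.52 and 8.97 FPKM in the KYSE150 hypoxia libraries, against 64.7, 76.6 and 67.1 FPKM in normoxia, and the change was -2.79 ± 0.08 (SE, adjusted p = 4.911e-07). In KYSE410 it had 17.3, 17.2 and 19.2 FPKM in hypoxia, against 82.0, 76.0 and 79.2 FPKM in normoxia, with a change of -2.08 ± 0.05 (SE, adjusted p = 8.807e-09). The hypoxic and normoxic groups did not come near each other in either line.

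GARS1 (chr7:30594735-30634033, plus strand), the glycine enzyme of both compartments, had 30.6, 30.8 and 31.3 FPKM in the KYSE150 hypoxia libraries, against 207, 223 and 206 FPKM in normoxia, and its change was -2.74 ± 0.07 (SE, adjusted p = 2.499e-07). In KYSE410 GARS1 had 44.1, 45.5 and 47.3 FPKM in hypoxia, against 283, 306 and 296 FPKM in normoxia, a change of -2.67 ± 0.04 (SE, adjusted p = 1.746e-09). The difference between these changes, KYSE410 minus KYSE150, was 0.07 ± 0.07 (SE, adjusted p = 0.4005) and not called. YARS1, the tyrosine enzyme, had 32.1, 31.0 and 33.3 FPKM in the KYSE150 hypoxia libraries, against 171, 197 and 176 FPKM in normoxia, a change of -2.46 ± 0.08 (SE, adjusted p = 6.808e-07). In KYSE410 YARS1 had 33.7, 34.0 and 34.7 FPKM in hypoxia, against 156, 166 and 165 FPKM in normoxia, a change of -2.21 ± 0.04 (SE, adjusted p = 1.884e-09).

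SARS1, the serine enzyme, which also charges the tRNA on which selenocysteine is made, had 58.6, 55.7 and 55.3 FPKM in the KYSE150 hypoxia libraries, against 225, 259 and 224 FPKM in normoxia, a change of -2.04 ± 0.08 (SE, adjusted p = 1.452e-06). In KYSE410 SARS1 had 58.3, 56.3 and 59.5 FPKM in hypoxia, against 286, 279.5 and 289.6 FPKM in normoxia, a change of -2.28 ± 0.03 (SE, adjusted p = 1.638e-09). The highest normoxic value of KYSE150 was in replicate 2, the library that stood apart. WARS1, the tryptophan enzyme, which is also known as a gene induced by interferon, had 24.4, 25.8 and 27.0 FPKM in the KYSE150 hypoxia libraries, against 179, 180.1 and 183 FPKM in normoxia, a change of -2.77 ± 0.07 (SE, adjusted p = 2.499e-07). In KYSE410 WARS1 had 54.1, 54.6 and 54.4 FPKM in hypoxia, against 104, 114 and 106 FPKM in normoxia, a change of -0.98 ± 0.04 (SE, adjusted p = 1.001e-07), so hypoxic cells held 50.3% of the normoxic mean there and 14.2% in KYSE150.

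**Figure D3:**
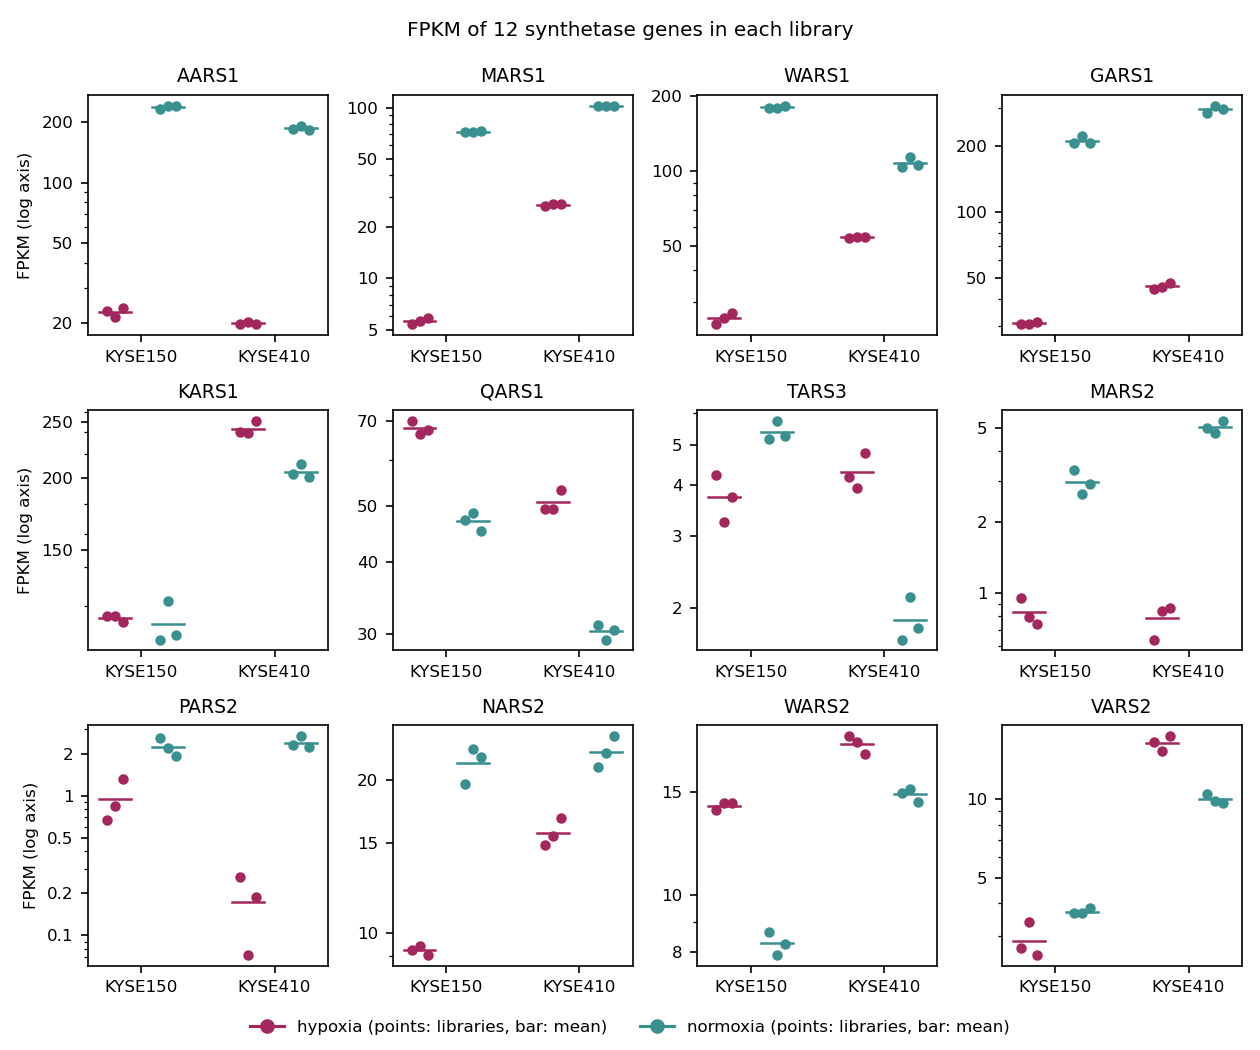
FPKM of 12 synthetase genes in every library on log axes that differ between panels, with hypoxia (pink) left of normoxia (green) in each line and bars at the group mean. AARS1, MARS1, WARS1 and GARS1 were lower in all 6 hypoxia libraries than in the normoxia libraries of the same line. QARS1 was higher, and KARS1, TARS3 and VARS2 differed in direction or call between lines. The rise of KARS1 in KYSE410 turned into a fall under quantile normalization.

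The other cytosolic genes that fell in both lines were TARS1, EPRS1, IARS1, FARSB, NARS1, HARS1, LARS1 and RARS1. In KYSE410 the first 3 of them fell further than WARS1. TARS1, the threonine enzyme, averaged 102 ± 3.40 FPKM in KYSE150 hypoxia and 366 ± 5.03 FPKM in normoxia (SD, n = 3 each), a log2 change of -1.83, and changed by -1.15 in KYSE410. EPRS1, a fused enzyme for glutamate and proline, changed by -1.47 in KYSE150 and -1.26 in KYSE410. IARS1, the isoleucine enzyme, changed by -1.27 and -1.01 in the same order of lines. In normoxia, EPRS1 and IARS1 were lowest in KYSE150 replicate 2, at 133 and 75.5 FPKM, against 159 to 166 and 94.9 to 98.1 FPKM in the other 2 libraries.

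The smallest of these falls, that of RARS1 in KYSE150 and that of LARS1 in KYSE410, were close to the all-gene medians of -0.13 and -0.21. RARS1, the arginine enzyme, changed by -0.33 in KYSE150, and no longer passed the threshold with median-of-ratios scaling (-0.17). LARS1, the leucine enzyme, which also takes part in leucine sensing, changed by -0.74 in KYSE150 and by -0.11 in KYSE410. The LARS1 fall in KYSE410 turned into a rise with median-of-ratios scaling (0.14) and after removing the length trend (0.23). Of the 16 cytosolic falls in each line, 15 in KYSE150 and 14 in KYSE410 kept their direction and call under median-of-ratios, common-sum and quantile scaling and with the length trend removed. The exceptions were RARS1 in KYSE150, and FARSA and LARS1 in KYSE410.

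QARS1 (chr3:49095932-49104757, minus strand), the glutamine enzyme, moved against its class in both lines. It had 70.1, 66.6 and 67.7 FPKM in the KYSE150 hypoxia libraries, against 47.2, 48.5 and 45.2 FPKM in normoxia, a log2 change of 0.53 ± 0.07 (SE, adjusted p = 0.0002842). In KYSE410 QARS1 had 49.4, 49.4 and 53.3 FPKM in hypoxia, against 31.1, 29.3 and 30.5 FPKM in normoxia, a change of 0.72 ± 0.04 (SE, adjusted p = 7.286e-07). Every hypoxic library was above every normoxic one of its line, and the call held under all scalings tried.

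KARS1, the lysine enzyme of both compartments, had 115, 115 and 113 FPKM in the KYSE150 hypoxia libraries, against 105, 122 and 107 FPKM in normoxia. These groups overlapped, and the change of 0.04 ± 0.08 (SE, adjusted p = 0.6727) was not called. Without normoxia replicate 2, the change in KYSE150 was 0.11 and passed the threshold. In KYSE410 KARS1 had 240.4, 239.6 and 251 FPKM in hypoxia, against 203, 212 and 200.5 FPKM in normoxia, a change of 0.25 ± 0.03 (SE, adjusted p = 0.0001596), but quantile normalization turned it to -0.23 and a common-sum scaling left 0.01. In hypoxia KARS1 had the highest level of the 20 cytosolic genes in both lines (114 ± 1.52 FPKM in KYSE150 and 244 ± 6.31 FPKM in KYSE410, SD, n = 3 each).

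TARS3, a second cytosolic threonine enzyme that resembles TARS1, moved in opposite directions. It had 4.24, 3.24 and 3.74 FPKM in the KYSE150 hypoxia libraries, against 5.19, 5.73 and 5.26 FPKM in normoxia, a log2 change of -0.44 ± 0.10 (SE, adjusted p = 0.006208). In KYSE410 TARS3 had 4.18, 3.93 and 4.78 FPKM in hypoxia, against 1.67, 2.12 and 1.79 FPKM in normoxia, a change of 0.89 ± 0.09 (SE, adjusted p = 1.791e-05). TARS3 was the least abundant cytosolic member in both lines, and reads shared with TARS1 could be split between these genes in a way the files do not show.

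The subunits of the phenylalanine enzyme differed in KYSE150, and the valine enzyme was not called in either line. FARSA and FARSB encode the catalytic and the regulatory subunit of 1 enzyme. FARSB averaged 11.1 ± 1.12 FPKM in KYSE150 hypoxia and 28.2 ± 0.933 FPKM in normoxia, while FARSA averaged 46.2 ± 1.17 FPKM and 43.9 ± 2.79 FPKM in the same order (SD, n = 3 each). The FARSB change was -1.28 ± 0.09 (SE, adjusted p = 1.481e-05), while the FARSA change of 0.07 was not called with all libraries and became 0.12 and called without normoxia replicate 2. In KYSE410 FARSB changed by -0.58 and FARSA by -0.34, which was weaker and not called with median-of-ratios scaling (-0.10). VARS1 was not called in either line, at -0.09 in KYSE150 and 0.04 in KYSE410, and both signs turned with the scaling.

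The enzymes of the multisynthetase complex did not move as a unit. Of the 7 enzymes of the complex among the 39 (EPRS1, IARS1, KARS1, LARS1, MARS1, QARS1 and RARS1), 5 fell in each line, with a median log2 change of -0.74 in KYSE150 and -0.50 in KYSE410. The other 13 cytosolic genes had medians of -1.83 in KYSE150 and -0.98 in KYSE410, with 11 lower in each line. This grouping was made after the values were seen and no test was run on it.

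The scaffold proteins fell less than the enzymes with the deepest falls. EEF1E1, the smallest of them, had 19.98, 21.0 and 21.9 FPKM in the KYSE150 hypoxia libraries, against 40.4, 53.4 and 46.0 FPKM in normoxia, a log2 change of -1.11 ± 0.11 (SE, adjusted p = 7.133e-05). In KYSE410 EEF1E1 had 21.2, 21.9 and 20.9 FPKM in hypoxia, against 41.7, 40.2 and 41.3 FPKM in normoxia, a change of -0.91 ± 0.04 (SE, adjusted p = 8.072e-08). The EEF1E1 groups were apart in both lines. AIMP2 had 11.7, 11.9 and 13.9 FPKM in the KYSE150 hypoxia libraries, against 20.5, 22.5 and 18.9 FPKM in normoxia, a change of -0.68 ± 0.10 (SE, adjusted p = 0.0005268). In KYSE410 AIMP2 had 7.92, 9.41 and 9.14 FPKM in hypoxia, against 15.6, 15.5 and 15.2 FPKM in normoxia, a change of -0.75 ± 0.06 (SE, adjusted p = 6.351e-06), and its groups were apart too.

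AIMP1, from which a secreted cytokine is also cut, had 15.2, 15.7 and 15.2 FPKM in the KYSE150 hypoxia libraries, against 19.8, 23.9 and 21.1 FPKM in normoxia, a log2 change of -0.46 ± 0.08 (SE, adjusted p = 0.001869). In KYSE410 AIMP1 had 27.1, 30.2 and 29.9 FPKM in hypoxia, against 28.9, 29.9 and 28.7 FPKM in normoxia, and the change of 0.00 was not called. That value took either sign across scalings, from -0.24 with a common sum to 0.24 with median-of-ratios scaling. The difference in response of AIMP1 between lines was 0.46 ± 0.10 (SE, adjusted p = 0.001303). AIMP2 shares 532 exonic bases (28.9% of its own) with EIF2AK1 on the opposite strand, and EEF1E1 shares 393 (18.7%) with a read-through transcript on the same strand.

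Among the mitochondrial enzymes, 4 fell in both lines: MARS2, PARS2, NARS2 and HARS2. MARS2 (chr2:197705369-197708395, plus strand), the mitochondrial methionine enzyme, had 0.957, 0.795 and 0.738 FPKM in the KYSE150 hypoxia libraries, against 3.33, 2.65 and 2.90 FPKM in normoxia, a log2 change of -1.11 ± 0.10 (SE, adjusted p = 5.889e-05). In KYSE410 MARS2 had 0.638, 0.846 and 0.867 FPKM in hypoxia, against 5.03, 4.78 and 5.36 FPKM in normoxia, a change of -1.76 ± 0.08 (SE, adjusted p = 1.326e-07). Hypoxic libraries held 28.1% of the normoxic mean in KYSE150 and 15.5% in KYSE410, a deeper fall than the log2(FPKM + 1) scale shows for a gene this low. PARS2 (chr1:54756898-54764523, minus strand), the proline enzyme, had 0.672, 0.843 and 1.31 FPKM in the KYSE150 hypoxia libraries, against 2.60, 2.20 and 1.92 FPKM in normoxia, a change of -0.75 ± 0.14 (SE, adjusted p = 0.002429). In KYSE410 PARS2 had 0.260, 0.0724 and 0.186 FPKM in hypoxia, against 2.31, 2.66 and 2.22 FPKM in normoxia, a change of -1.53 ± 0.09 (SE, adjusted p = 8.142e-07), with 7.22% of the normoxic mean left. Every hypoxic PARS2 and MARS2 value was below every normoxic one in each line.

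NARS2, the asparagine enzyme, had 9.28, 9.42 and 9.07 FPKM in the KYSE150 hypoxia libraries, against 19.6, 23.0 and 22.1 FPKM in normoxia, a log2 change of -1.14 ± 0.08 (SE, adjusted p = 1.703e-05). In KYSE410 NARS2 had 14.9, 15.5 and 16.8 FPKM in hypoxia, against 21.2, 22.6 and 24.3 FPKM in normoxia, a change of -0.50 ± 0.06 (SE, adjusted p = 7.691e-05). NARS1 and NARS2 thus both fell in both lines. HARS2, the histidine enzyme, lies head to head with HARS1, with which it shares 437 exonic bases on opposite strands. HARS2 changed by -0.36 in KYSE150, a call that was lost with median-of-ratios scaling (-0.22), quantile normalization (-0.24) and the length trend removed (-0.19), and by -0.64 in KYSE410.

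IARS2, WARS2 and YARS2 rose in both lines. IARS2, the most abundant mitochondrial member in every group, averaged 73.5 ± 2.35 FPKM in KYSE150 hypoxia and 58.8 ± 2.15 FPKM in normoxia, and 143 ± 1.46 FPKM in KYSE410 hypoxia and 106 ± 1.40 FPKM in normoxia (SD, n = 3 each). Its log2 changes were 0.32 and 0.43. WARS2 had 13.9, 14.3 and 14.3 FPKM in the KYSE150 hypoxia libraries, against 8.66, 7.91 and 8.24 FPKM in normoxia, a log2 change of 0.71 ± 0.07 (SE, adjusted p = 8.714e-05). In KYSE410 WARS2 had 18.6, 18.2 and 17.4 FPKM in hypoxia, against 14.9, 15.2 and 14.4 FPKM in normoxia, a change of 0.27 ± 0.04 (SE, adjusted p = 0.0004152), which was 0.04 and not called when libraries were set to a common sum. YARS2 changed by 0.34 and 0.33, and its call was lost in KYSE410 with a common sum (0.10) and in KYSE150 without hypoxia replicate 1 (0.34), hypoxia replicate 2 (0.31) or normoxia replicate 1 (0.24).

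VARS2, the mitochondrial valine enzyme, took opposite directions. It had 2.70, 3.40 and 2.54 FPKM in the KYSE150 hypoxia libraries, against 3.65, 3.66 and 3.83 FPKM in normoxia, a log2 change of -0.29 ± 0.10 (SE, adjusted p = 0.03999). The fall lost its call under each of median-of-ratios (-0.17), common-sum (-0.28) and quantile scaling (-0.16), with the length trend removed (-0.20) or no filter (-0.29), and without hypoxia replicate 1 (-0.26) or 3 (-0.23) or normoxia replicate 1 (-0.30) or 3 (-0.27). In KYSE410 VARS2 had 16.7, 15.3 and 17.4 FPKM in hypoxia, against 10.5, 9.83 and 9.67 FPKM in normoxia, a change of 0.67 ± 0.06 (SE, adjusted p = 7.89e-06), with groups apart. VARS2 shares 1858 exonic bases (22.0%) with GTF2H4 on the same strand, so its level is uncertain.

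AARS2, the mitochondrial alanine enzyme, had 3.90, 3.54 and 3.98 FPKM in the KYSE150 hypoxia libraries, against 3.50, 3.57 and 4.07 FPKM in normoxia, groups that overlapped, and a change of 0.03 that was not called. In KYSE410 AARS2 had 1.55, 1.67 and 1.65 FPKM in hypoxia, against 3.28, 3.36 and 3.21 FPKM in normoxia, a change of -0.71 ± 0.06 (SE, adjusted p = 7.637e-06), and every hypoxic value was below the normoxic ones. CARS2 rose by 0.63, TARS2 by 0.66 and LARS2 by 0.34 in KYSE410, and none of the 3 was called in KYSE150 (-0.16, 0.07 and 0.20). LARS2 lost its call in KYSE410 with a common sum (0.13).

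The remaining mitochondrial changes were small. RARS2 changed by -0.26 in KYSE150, a call lost without hypoxia replicate 1 (-0.26), 2 (-0.23) or 3 (-0.29) or normoxia replicate 3 (-0.25), and by 0.07 in KYSE410, not called. The RARS2 call in KYSE150 was also lost with median-of-ratios scaling (-0.12), quantile normalization (-0.13), the length trend removed (-0.06) and no filter (-0.26). EARS2 changed by -0.19 in KYSE410, where quantile normalization turned it to 0.14, and by -0.14 in KYSE150, not called except without normoxia replicate 2 (-0.25). SARS2 changed by -0.28 in KYSE410, which turned to 0.03 under quantile normalization, and shares 46.2% of its exonic bases with a read-through gene on the same strand. FARS2 was not called in either line, at -0.07 and 0.21. In KYSE410 it passed the threshold without hypoxia replicate 1 (0.27).

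Set against its mitochondrial partner for the same amino acid, the cytosolic enzyme had the lower log2 change in 14 of 17 pairs in KYSE150 and in 15 of 17 in KYSE410. EPRS1 and FARS2 each stand in more than 1 pair. By the FPKM ratio of the pair, which has no pseudocount, the mean was lower in hypoxia in 14 of 17 pairs in each line. The median difference was -1.33 in KYSE150 and -0.79 in KYSE410, and such a difference within a line does not move when all genes of a library are scaled alike, apart from the pseudocount. The widest gap in KYSE150 was between WARS1 and WARS2, at -3.48. WARS1 was 1.81 ± 0.0706 times as abundant as WARS2 in hypoxia and 21.9 ± 1.09 times in normoxia (SD, n = 3 each). AARS1 was 5.95 ± 0.102 times AARS2 in KYSE150 hypoxia and 64.4 ± 4.46 times in normoxia (SD, n = 3 each). For cysteine the order of the enzymes turned over: CARS1 was 0.626 ± 0.0485 times CARS2 in KYSE410 hypoxia and 4.37 ± 0.202 times in normoxia (SD, n = 3 each). It turned over in KYSE150 as well, with 0.291 ± 0.0113 in hypoxia and 1.96 ± 0.0714 in normoxia, and so it did for isoleucine.

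Other pairs lay closer together or turned in at least 1 line. For histidine the difference was -0.18 in KYSE150 and 0.01 in KYSE410, where both genes fell. For asparagine it was 0.40 in KYSE150, where NARS2 fell further than NARS1, and -0.24 in KYSE410. For methionine the gap was -2.36 in KYSE150 and -0.12 in KYSE410. The pseudocount sets the sign of the KYSE410 value: MARS1 was 34.9 ± 5.56 times MARS2 in hypoxia and 20.2 ± 1.13 times in normoxia (SD, n = 3 each), so by FPKM the mitochondrial message fell further. In KYSE410 PARS2 had the lower change of the pair with EPRS1, by 0.28 on the log2(FPKM + 1) scale. That scale understates it, since EPRS1 was at least 366 times PARS2 in every KYSE410 hypoxia library, against 86.3 to 106 times in normoxia.

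**Figure D4:**
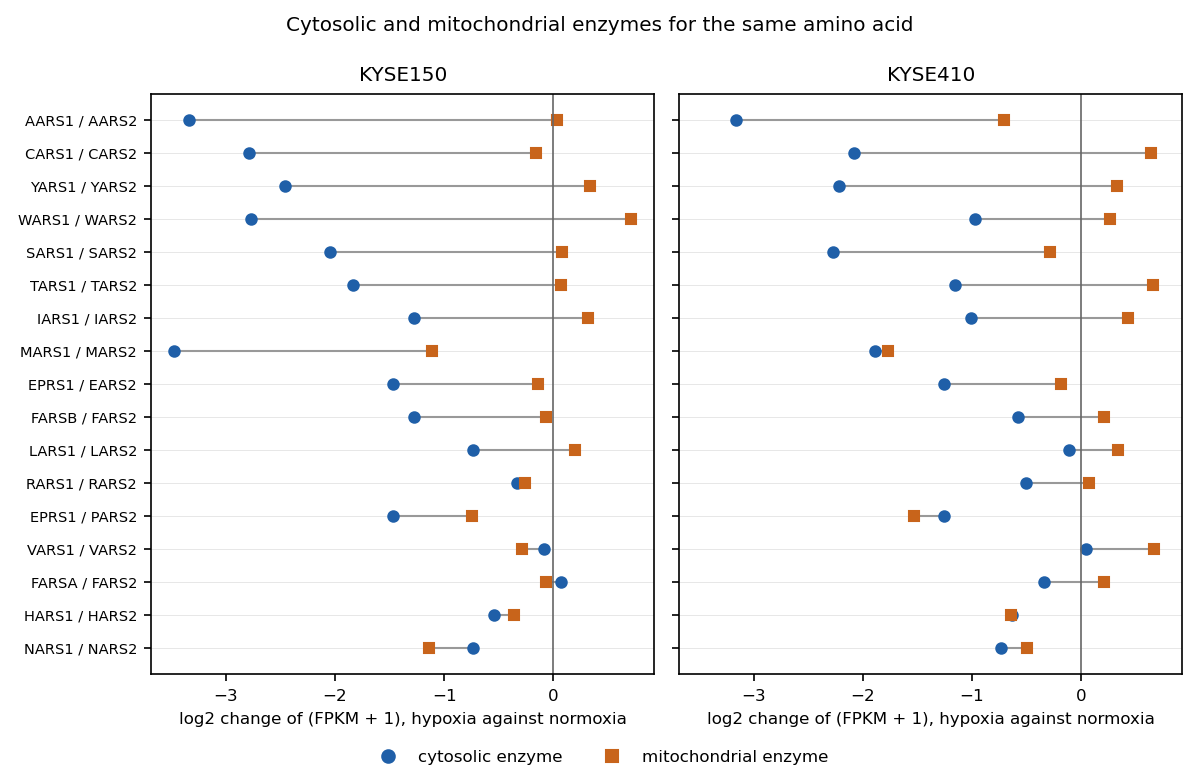
Log2 change of (FPKM + 1), hypoxia against normoxia, of the cytosolic enzyme (circle) and the mitochondrial enzyme (square) for the same amino acid, with 17 pairs in KYSE150 (left) and KYSE410 (right), ordered by their mean difference. The circle lies left of the square in 14 pairs in KYSE150 and in 15 in KYSE410, with the widest gap at -3.48 for WARS1 and WARS2 in KYSE150. Single positions shift with the scaling. The signs of LARS1, VARS1, EARS2, RARS2 and SARS2 in KYSE410 and of VARS1 and FARS2 in KYSE150 turn with it.

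The difference in response between lines was tested as the interaction of line and oxygen in 1 fit of all 12 libraries (KYSE410 minus KYSE150). Of the 39 genes, 16 were higher and 9 lower in KYSE410 by this test, against 27.3% and 36.0% of all 12653 genes tested. In either direction this is 64.1% of the 39, close to the 63.3% of all genes. The cytosolic class had 10 higher, 3 lower and 7 not called, which for genes that fell means a shallower fall in KYSE410. WARS1 had the largest difference, 1.79 ± 0.07 (SE, adjusted p = 8.338e-09), followed by MARS1 at 1.58 ± 0.06 (SE, adjusted p = 6.666e-09) and TARS3 at 1.33 ± 0.13 (SE, adjusted p = 5.499e-06). On the other side stood PARS2 at -0.79, AARS2 at -0.74 and MARS2 at -0.65, all 3 mitochondrial. The mitochondrial class had 5 higher, 6 lower and 5 not called.

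Several of these differences are no larger than the shift between scalings. The cytosolic differences of AARS1 (0.17), YARS1 (0.24) and QARS1 (0.20) turned sign with a common-sum scaling. The calls of WARS1, MARS1, TARS3, PARS2, AARS2 and MARS2 held under all scalings and with each library left out. Across genes, the changes in KYSE410 and KYSE150 had a Pearson correlation of 0.876 over the 20 cytosolic genes and 0.677 over the 16 mitochondrial ones. This is a description only, since the genes of a line share the same 6 libraries.

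**Figure D5:**
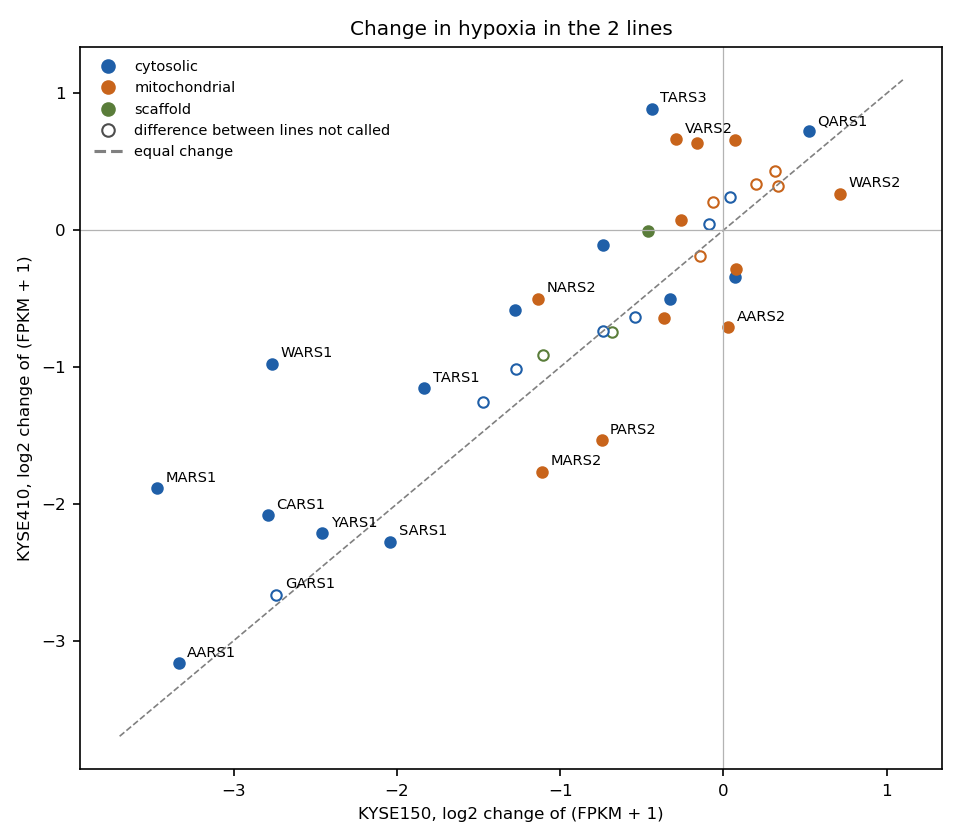
Log2 change of (FPKM + 1), hypoxia against normoxia, in KYSE410 (vertical) plotted over KYSE150 (horizontal) for the 39 genes, with a dashed line where both are equal. Filled points had a called difference between lines. WARS1 and MARS1 lie furthest above the line, by 1.79 and 1.58, and PARS2 and AARS2 furthest below it, by -0.79 and -0.74, while the small differences of AARS1, YARS1 and QARS1 turn sign with a common-sum scaling.

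In normoxia the lines already differed in most of these genes, on the assumption that FPKM is comparable between the separately deposited tables. The S numbers of the normoxic KYSE410 libraries also lie apart from those of the normoxic KYSE150 ones. If these numbers mark library sets, which the labels do not say, set and line cannot be told apart here. All 20 cytosolic genes differed, 12 with the higher level in KYSE410 and 8 with the lower, as did 8 and 3 of the 16 mitochondrial genes, against 40.4% higher and 38.8% lower of all genes tested. HARS1 averaged 70.7 ± 0.614 FPKM in normoxic KYSE410 and 25.7 ± 3.12 FPKM in normoxic KYSE150, a difference of 1.43 on the log2 scale. RARS1 was higher by 1.32 and VARS2 by 1.22 in KYSE410. TARS1 had the largest difference the other way, with 112 ± 3.60 FPKM in normoxic KYSE410 and 366 ± 5.03 FPKM in normoxic KYSE150 (SD, n = 3 each), or -1.70. TARS3 (-1.16) and CARS2 (-0.93) were also lower in KYSE410.

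Levels within the cytosolic class drew together in hypoxia in 1 respect. The cytosolic genes with higher normoxic levels had the deeper falls, with a Spearman correlation across the 20 genes of -0.635 in KYSE150 and -0.650 in KYSE410. The normoxic values enter both axes, so a part of this is built in. Over the 16 mitochondrial genes it was 0.159 in KYSE150 and 0.276 in KYSE410. The median cytosolic level was 34.2 FPKM in KYSE150 hypoxia and 70.9 FPKM in normoxia, and 47.8 FPKM in KYSE410 hypoxia and 110 FPKM in normoxia. The median mitochondrial level was 8.12 FPKM in KYSE150 hypoxia and 7.46 FPKM in normoxia, and 12.8 FPKM in KYSE410 hypoxia and 9.91 FPKM in normoxia.

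Genes that act around the synthetases were read from the same fits. The GCN2-ATF4 arm (the eIF2 kinases, of which GCN2 senses uncharged tRNA, with ATF4, its partners and targets) had 11 of 17 genes lower and 1 higher in KYSE150, and 13 of 16 tested lower and 2 higher in KYSE410. That is 64.7% lower in KYSE150 and 81.2% in KYSE410, against 38.8% and 51.9% of all genes tested. ATF4 mRNA averaged 69.6 ± 16.7 FPKM in KYSE150 hypoxia and 219 ± 25.9 FPKM in normoxia, and 91.2 ± 2.04 FPKM in KYSE410 hypoxia and 158 ± 30.4 FPKM in normoxia (SD, n = 3 each). Its log2 changes were -1.66 ± 0.18 and -0.77 ± 0.12 (SE, adjusted p = 0.0001378 and 0.0003831). TRIB3, a target and inhibitor of ATF4, changed by -2.39 in KYSE150 and -3.56 in KYSE410. Upstream, EIF2AK4, the kinase GCN2 itself, was not called in KYSE150 (0.05) and changed by -0.24 in KYSE410. PPP1R15A, a subunit of the phosphatase that reverses eIF2 phosphorylation, rose by 1.37 in KYSE410 and was not called in KYSE150 (0.19). ATF4 protein was not measured.

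Of 14 genes of tRNA maturation and export, 10 were lower and 3 higher in each line, so 71.4% were lower, against 38.8% of all genes in KYSE150 and 51.9% in KYSE410. XPOT, which exports tRNA from the nucleus, changed by -1.44 in KYSE150 and -1.18 in KYSE410. TRMT10C, a subunit of mitochondrial RNase P, changed by -1.21 and -2.66. TSEN34, a subunit of the tRNA splicing endonuclease, rose by 0.79 and 0.97, while its partner TSEN15 changed by -1.56 and -1.16. Among 6 genes of editing and release, 4 were lower in each line (66.7%, against the same all-gene shares), with PTRH2 at -1.65 and -1.15. PTRHD1 rose by 0.31 in KYSE150 and 1.08 in KYSE410, and DTD1 rose by 0.31 in KYSE410.

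On the mitochondrial side, GATB, a subunit of the amidotransferase that completes the glutamine tRNA after EARS2, rose by 0.62 in KYSE150 and 0.99 in KYSE410, whereas QRSL1, the catalytic subunit, changed by -0.22 and -0.50. Of 9 mitochondrial translation factors, 5 were lower in each line and 1 was higher in KYSE410, with GFM1, an elongation factor, at -1.24 and -0.75. The share lower was 55.6%, near the 51.9% of all genes in KYSE410 and above the 38.8% in KYSE150. SEPHS2, which makes the selenium donor for selenocysteine, changed by -1.89 and -2.59, and 4 of the 5 selenocysteine genes were lower in KYSE150 and 2 in KYSE410 (against 38.8% and 51.9% of all genes). The other one, EEFSEC, rose by 0.33 in KYSE150.

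Transcript length and marker levels moved in part with the groups. The longest transcript had a median of 3423 nucleotides in the cytosolic class and 2915 in the mitochondrial class. Across genes, the change in hypoxia and transcript length had a Spearman correlation of 0.0588 in KYSE150 and -0.272 in KYSE410. The KYSE150 value averages over normoxia libraries with opposite trends. Their deviations correlated with length at 0.518, -0.632 and 0.574 in normoxia replicates 1, 2 and 3. In KYSE150 hypoxia these correlations were -0.0157, -0.0939 and 0.118, and in KYSE410 they ran from -0.146 to 0.149. With the length trend removed, the median log2 change was -1.15 for cytosolic and 0.02 for mitochondrial genes in KYSE150, and -0.60 and 0.27 in KYSE410. The squamous and epithelial markers summed to 1134 to 1188 FPKM in KYSE150 hypoxia and 786 to 1022 FPKM in normoxia, and to 2354 to 2408 FPKM in KYSE410 hypoxia and 2353 to 2487 FPKM in normoxia. Within the nearly level KYSE410 sum, 7 of the 13 markers tested rose and 6 fell, from 2.94 for KRT17 to -1.03 for KRT18. In KYSE150 2 of 5 tested rose and none fell. The fibroblast markers summed to 5.52 to 6.08 FPKM in KYSE150 hypoxia and 7.79 to 8.11 FPKM in normoxia, and to 0.480 to 0.739 FPKM in KYSE410 hypoxia and 0.860 to 1.57 FPKM in normoxia. Of the leukocyte markers, PTPRC and CD14 stayed under 0.1 FPKM in all groups, and the list summed to 26.9 to 30.3 FPKM in KYSE150 hypoxia and 15.4 to 17.6 FPKM in normoxia, nearly all of it CD68, a lysosomal protein. In KYSE410 it summed to 80.8 to 85.6 FPKM in hypoxia and 29.8 to 32.7 FPKM in normoxia. The part of these markers in the synthetase results was not tested.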

How the data were processed

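Messenger RNA was captured with poly(A) beads from TRIzol extracts, per the labels' protocols. HISAT2 2.2.1, fastp 0.22.0, bcl2fastq 2.20 and the build hg38 are named in the submitters' processing notes. For strand, annotation and quantifier the answer is "not given in the sources used here". From the authors came 1 deposited table per line in a unit inferred from the values to be FPKM: columns summed to between 351501 and 425094. In KYSE410 the sums lay apart by oxygen, at 415926 to 425094 in hypoxia and 351501 to 356994 in normoxia. In KYSE150 they overlapped, at 377909 to 382990 in hypoxia and 366156 to 413967 in normoxia. No whole-read steps were found (the commonest ratio between libraries held for at most 0.78% of genes under 0.5 FPKM), so depth is unknown and count tools were not run.

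Each line was fitted with limma 3.58.1 under R 4.3.3 (trend on the mean, two-sided) on log2(FPKM + 1). Genes needed a mean of 1 FPKM or more, with Benjamini-Hochberg adjustment over all genes tested and calls at an adjusted p under 0.05. The difference between lines and the normoxic contrast came from 1 fit of the 12 libraries. The fits were tested on simulated data. Members, pathway lists and the naming rule were chosen with earlier results of these data known. Per-library values were given for the 5 cytosolic and 4 mitochondrial members with the largest called changes in each line, for GARS1, KARS1 and the scaffold genes, for called members against their class, and for the 3 largest called differences between lines each way. Positions and promoters came from RefSeq (GRCh38.p14), transcript lengths and overlaps from GENCODE 29. Alternatives covered scaling, pseudocount, filter, length trend, replicate block, threshold and each library left out. No per-sample column was left unused.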

Additional observations from a re-analysis of the deposited data

Results flagged for a closer look

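The response to hypoxia differed between the lines in 25 of the 39 genes by the interaction of line and oxygen (log2 scale, KYSE410 minus KYSE150, limma over all 12 libraries, adjusted p under 0.05). That is 64.1% of them, close to the 63.3% of all 12653 genes tested. Differences above zero were 1.79 for WARS1, 1.58 for MARS1, 1.33 for TARS3, 0.71 for CARS1, 0.70 for FARSB, 0.68 for TARS1, 0.63 for LARS1, 0.24 for YARS1, 0.20 for QARS1 and 0.17 for AARS1 among the cytosolic genes. They were 0.96 for VARS2, 0.79 for CARS2, 0.64 for NARS2, 0.59 for TARS2 and 0.33 for RARS2 among the mitochondrial genes, and 0.46 for the scaffold gene AIMP1. Differences below zero were -0.42 for FARSA, -0.24 for SARS1 and -0.18 for RARS1 among the cytosolic genes. They were -0.79 for PARS2, -0.74 for AARS2, -0.65 for MARS2, -0.45 for WARS2, -0.36 for SARS2 and -0.28 for HARS2 among the mitochondrial genes. The median of this difference over all genes tested was -0.09. If the S numbers in the KYSE410 library names mark library sets, which the labels do not say, these differences share a set that cannot be told apart from oxygen.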

How the results depend on the processing

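With 1 library left out, the cytosolic genes called lower numbered 16 in every fit of either line; over the other settings they were 15 to 16 in KYSE150 and 14 to 17 in KYSE410. Cytosolic genes called higher in KYSE150 (1) became 2 with median-of-ratios scaling, and 3 with quantile normalization or the length trend removed, with or without the replicate block. In KYSE150, mitochondrial genes called higher (3) became 6 and those called lower (6) became 3 under these 4 settings, and those lower were 3 at a filter of 5 FPKM. In KYSE410, cytosolic genes called higher (3) became 5 with median-of-ratios scaling and with the length trend removed. Mitochondrial genes there called higher (7) became 4 with a common sum, and those lower (7) became 4 at 5 FPKM. For the difference between lines, cytosolic genes called lower (3) became 1 with median-of-ratios scaling, the replicate block or an adjusted p under 0.01, and 6 with a common sum or quantile normalization. Mitochondrial genes called higher (5) became 8 with the length trend removed, and those lower (6) became 3 at 5 FPKM. That filter tests fewer genes: calls over all genes were then 3253 lower in KYSE150, 4007 lower in KYSE410, 2981 lower for the difference, and 3400 higher and 3208 lower in normoxia.

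Cytosolic medians in KYSE150 were -1.12 with median-of-ratios scaling, -1.15 with quantile normalization or the length trend removed, and -1.32 with a pseudocount of 0.1. In KYSE410 they were -0.61 with median-of-ratios scaling, -1.10 with a common sum, -1.01 with quantile normalization, -0.98 at 5 FPKM and -0.60 with the length trend removed. Mitochondrial medians in KYSE150 were 0.033 with median-of-ratios scaling, 0.020 with quantile normalization and 0.024 with the length trend removed. In KYSE410 they were 0.36, 0.23 and 0.27 with these, -0.069 with a common sum and 0.30 at 5 FPKM. Median-of-ratios scaling moved the all-gene median to 0.00 in both lines, and a common sum moved it to -0.42 in KYSE410.

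Signs turned in KYSE150 for VARS1 with median-of-ratios scaling (0.068), quantile normalization (0.030) and the length trend removed (0.036), and for FARS2 with the same 3 (0.071, 0.062 and 0.064). Without 1 library FARS2 spanned -0.12 to 0.037 and AARS2 -0.0018 to 0.084. In KYSE410 they turned for KARS1 with quantile normalization (-0.23), for LARS1 with median of ratios (0.14) and the length trend removed (0.23), and for EARS2 with these and with quantile normalization (0.038, 0.11 and 0.14). VARS1 (-0.19) and RARS2 (-0.15) turned with a common sum and SARS2 with quantile normalization (0.031). AIMP1 turned with median of ratios (0.24), quantile normalization (0.10) and the length trend removed (0.18), and spanned -0.032 to 0.042 without 1 library. The differences between lines of AARS1 (-0.076), QARS1 (-0.051) and YARS1 (-0.0061) turned with a common sum, and that of AARS1 with quantile normalization (-0.038). Adding the replicate block to the length correction gave the same values, and for all these changes the cause was not tested.

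With 1 library left out, KYSE150 had 1 to 3 cytosolic genes called higher (3 without normoxia replicate 2), and medians of -1.32 to -1.24 for cytosolic and -0.13 to -0.054 for mitochondrial genes. For the difference between lines, 1 to 4 cytosolic genes were called lower; it was 1 without KYSE410 hypoxia replicate 1 or 2, KYSE410 normoxia replicate 1 or 3, KYSE150 hypoxia replicate 1, or KYSE150 normoxia replicate 1 or 3. Deviations of same-numbered libraries from their group means correlated at -0.069, 0.084 and 0.051 in KYSE150 and at -0.045, -0.0077 and 0.020 in KYSE410. Not every library correlated best with its own number. These small values cannot show whether the libraries were made in pairs. Alone, the replicate block moved no count of members other than that of 3 to 1 by over 1.5 times. Depth is unknown, so the precision of low values such as those of PARS2 is too.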
